A study of Mus musculus with 6 samples.

Results

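The genes described here are the core of fatty acid synthesis: 8 enzymes (Acly, Acss2, Me1, Acaca, Fasn, Elovl6, Scd1 and Scd2) and the transcription factor Srebf1. They were chosen by name as lipogenic genes, with earlier results of these data known, and all 9 were measured among 14712 genes tested, with 14 probes of the 41174 on the array. Colonic mucosa of C57BL/6 mice at 90 postnatal days was compared between Tlr2 knockout (Tlr2-/-) and wild-type animals. Tlr2 encodes a cell-surface receptor for bacterial lipoproteins, and the labels name no cell type to which its loss is restricted. RNA of 4 knockout and 4 wild-type samples was hybridised on 4 dual-channel Agilent arrays, with a sample of each genotype on every array. The pairs carry the number of the knockout sample (1, 2, 4 and 5). The knockout sample was in the Cy3 channel in pairs 1 and 2 and in the Cy5 channel in pairs 4 and 5.

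Fatty acid synthesis builds palmitate in the cytosol from acetyl-CoA. Acly makes acetyl-CoA from citrate and Acss2 makes it from acetate, Acaca carboxylates it to malonyl-CoA, and Fasn joins these units with NADPH that Me1 helps to supply. Elovl6 lengthens the product, and Scd1 and Scd2 introduce the first double bond to give monounsaturated fatty acids. Srebf1 encodes SREBP-1, a membrane-bound transcription factor that, once released, activates genes of this pathway. The mucosa is mostly epithelium, but scraped tissue can also hold fat, muscle, stroma and leukocytes, and mesenteric fat expresses the same enzymes. In bulk RNA, a change in the number of cells of a type and a change in RNA per cell cannot be told apart.

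The promoters of 4 members are shown, chosen by the values of each gene's brightest probe. Acly and Acss2 had the same signs in each pair, Fasn separated the genotypes and Elovl6 stood on the other side of 0 from Fasn in 3 pairs. Each run is the 250 bases before the RefSeq transcript start in GRCm38.p6, read 5′ to 3′ on the gene's strand, with matches to the motifs below in capitals. Fasn lies at chr11:120824548-120824797 on the minus strand, Acly at chr11:100528001-100528250 on the minus strand, Acss2 at chr2:155517793-155518042 on the plus strand and Elovl6 at chr3:129532136-129532385 on the plus strand.
Fasn: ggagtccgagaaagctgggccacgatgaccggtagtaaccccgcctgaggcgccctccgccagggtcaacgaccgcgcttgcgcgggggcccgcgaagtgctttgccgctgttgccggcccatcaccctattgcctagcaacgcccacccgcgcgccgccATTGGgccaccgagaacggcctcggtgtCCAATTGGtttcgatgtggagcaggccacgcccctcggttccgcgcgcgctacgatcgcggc
Acly: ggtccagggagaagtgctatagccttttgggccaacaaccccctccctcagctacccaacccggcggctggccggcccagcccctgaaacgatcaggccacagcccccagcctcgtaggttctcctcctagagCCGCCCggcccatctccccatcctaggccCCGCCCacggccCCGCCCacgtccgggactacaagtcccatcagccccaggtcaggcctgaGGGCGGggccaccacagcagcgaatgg
Acss2: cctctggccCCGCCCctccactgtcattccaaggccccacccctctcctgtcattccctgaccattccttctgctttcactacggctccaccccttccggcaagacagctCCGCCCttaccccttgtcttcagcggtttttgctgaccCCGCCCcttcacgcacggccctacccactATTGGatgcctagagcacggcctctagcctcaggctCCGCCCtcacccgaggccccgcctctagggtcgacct
Elovl6: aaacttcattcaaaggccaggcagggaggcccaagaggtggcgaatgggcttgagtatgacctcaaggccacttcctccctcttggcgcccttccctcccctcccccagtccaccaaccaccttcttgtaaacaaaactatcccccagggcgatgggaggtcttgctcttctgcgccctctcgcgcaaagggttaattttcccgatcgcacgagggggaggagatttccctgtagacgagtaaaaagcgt

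The motifs were searched on both strands. The Sp1 box GGGCGG and the CCAAT box (CCAAT) are general promoter elements, the SREBP element was TCACNCCAC and the E-box was CACGTG. Windows were found for 7 of the 9 members, in 10 windows, since Srebf1 and Me1 have several starts. The Fasn window held 3 CCAAT boxes, the first at 90 to 86 bases, the next at 62 to 58 bases and the last at 59 to 55 bases before the start, the last of these overlapping the one before it. The Acly window held 4 Sp1 boxes, and the Acss2 window held 4 Sp1 boxes and 1 CCAAT box. The Elovl6 window held none of the motifs. Over the members, 5 of 10 windows held an Sp1 box and 5 of 10 a CCAAT box, against 32.74% and 33.85% of 32851 promoters of the same length. None of the 10 windows held these letters of the SREBP element or the E-box, which occurred in 1.053% and 6.021% of all promoters.

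The signal of the deleted gene followed the labels in all pairs. The Tlr2 log2 ratio of knockout over wild type was -4.42, -5.31, -5.50 and -4.20 in pairs 1, 2, 4 and 5, with a mean of -4.86 ± 0.643 (SD, n = 4 pairs). In every channel, 63.3% to 76.5% of 43379 spots were well above background. Pair 1 stood apart from the other pairs: over 14701 genes its log2 ratios correlated at r = -0.21 with pair 2, -0.42 with pair 4 and -0.10 with pair 5, while the other pairs correlated with each other at 0.42 to 0.57. These correlations run over genes of the same arrays, which are not replicates. The dyes stated in the labels and the Tlr2 ratio give pair 1 the same direction as the rest, so its values were kept, and the mean of each gene named below is also given without it. Markers of absorptive colonocytes were all measured (10 of 10), with a mean log2 signal of 14.63 to 15.23 in the 8 samples, although 7 of the 10 were saturated on at least 1 array. Posterior Hox genes, which mark position along the hindgut, had a median log2 ratio of -1.48 in pair 1 and of 0.50, 1.21 and 0.50 in pairs 2, 4 and 5.

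None of the 9 genes passed limma's test at an adjusted p of 0.05, nor did any of the 14712 genes, so percent called was 0 in both directions. The deleted gene Tlr2 did not pass either (limma adjusted p = 0.318), so failing this test does not show that a gene was unchanged. At an unadjusted p under 0.05, limma picked 1 of 9 members (Fasn), against 8.1% of all genes tested. The fit had 2 residual degrees of freedom. The members lay above 0 on average: 7 of 9 had a positive mean log2 ratio, against 7002 of 14712 genes, and the median of their means was 0.27, against -0.01 over all genes. With median centring in place of loess, 5 of 9 members and 5568 of 14712 genes were positive. With the mean of all probes of a gene, the members' median was 0.11. By brightest probe it was 0.39 without pair 1 and -0.06 without pair 4, so pair 4 decides its sign. The median member ratio was -0.09 in pair 1, 0.16 in pair 2, 0.38 in pair 4 and 0.39 in pair 5. These medians are a description of the 9 genes and were not tested.

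Fasn and Scd1 were the members with a positive log2 ratio in all 4 pairs, 2 of 9 against 7.18% of all genes tested, and none of the members was negative in all 4 pairs, against 8.41%. Without loess, pair 1 turned negative for Fasn in both settings tried and for Scd1 in 1 of them, as given below. In pairs 2, 4 and 5 alone, 6 of 9 members were positive (Fasn, Scd1, Scd2, Acaca, Acly and Acss2), against 23.4% of all genes, and 0 were negative, against 24.5%. The 4 members negative in pair 1 and positive in the other 3 pairs were Scd2, Acaca, Acly and Acss2, a pattern held by 16.2% of all genes. This pattern, and the count without pair 1, were picked after the values were seen. With median centring in place of loess, the pair 2 ratios of Scd1, Scd2, Acly and Acss2 were -0.06, -0.16, -0.03 and -0.23. These genes then no longer counted as positive in pairs 2, 4 and 5.

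**Figure D1:**
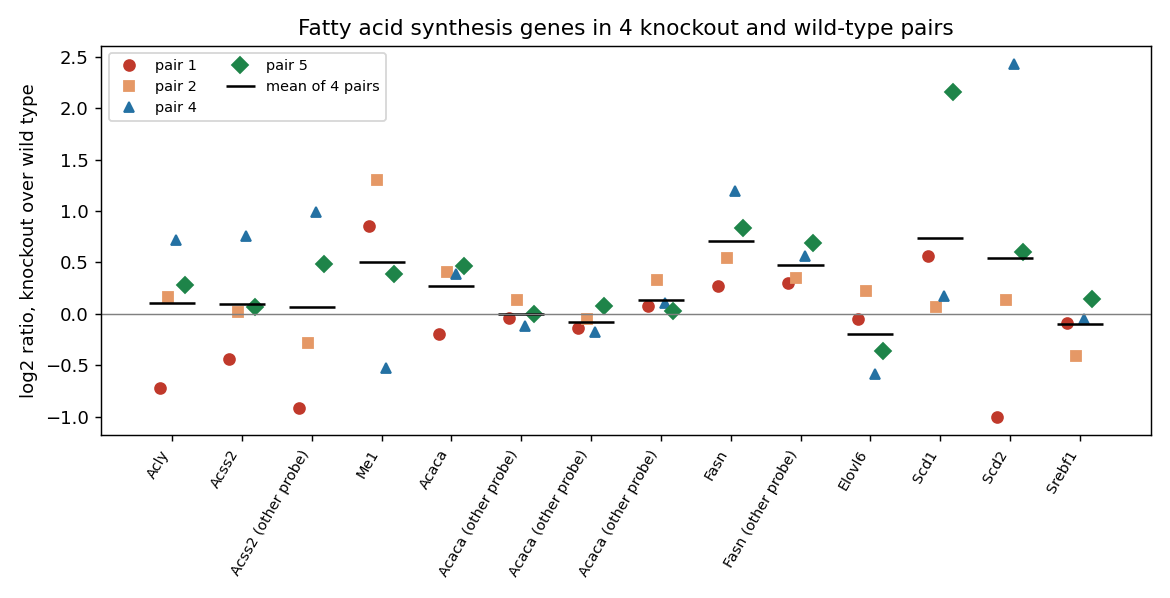
Log2 ratio of knockout over wild type (vertical axis) for every probe of the 9 genes (horizontal axis), after loess. Each symbol is 1 pair and each bar the mean of 4 pairs; both Fasn probes and the Scd1 probe lie above 0 in all 4 pairs, while Scd2 runs from -1.0 in pair 1 to 2.43 in pair 4, and without loess Fasn in pair 1 lies at -0.76 or -0.08.

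Fasn, the multi-domain synthase that assembles palmitate, was the member whose genotypes did not overlap, by its brighter probe only. Its brighter probe (transcript NM_007988) gave a log2 signal of 14.87, 15.11, 15.08 and 15.43 in the knockout samples of pairs 1, 2, 4 and 5. The wild-type samples of the same pairs gave 14.60, 14.57, 13.89 and 14.59. All knockout samples lay above all wild-type samples, although the closest, the pair 1 knockout and the pair 1 wild type, were 0.27 apart. No other member had this separation: 1 of 9 members, against 2.22% of all genes, and in 0 of 9 did all knockout samples lie below, against 2.41%. Its log2 ratio in these pairs was 0.27, 0.54, 1.19 and 0.84, with a mean of 0.71 ± 0.396 (SD, n = 4 pairs), which is 1.64-fold, and of 0.86 ± 0.326 over the 3 pairs without pair 1. Pair 4, where the wild-type sample was the lowest of the 8, had the largest ratio. Without loess the pair 1 ratio was -0.76 with median centring and -0.08 with Agilent's processed signals, so the separation was then lost. On the loess values, the limma fit takes out a dye effect, here the difference between pairs 1 and 2 and pairs 4 and 5. In limma the standard error was 0.114, the 95% confidence interval 0.40 to 1.02, the unadjusted p 0.00320 and the adjusted p 0.594. The two-sided exact test over sign changes of the 4 pairs gave p = 0.125, the smallest p that 4 pairs allow.

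The other Fasn probe gave log2 ratios of 0.30, 0.35, 0.56 and 0.69, a mean of 0.47 ± 0.183 (SD, n = 4 pairs) and of 0.53 ± 0.172 without pair 1. The genotypes overlapped narrowly in this probe, with a lowest knockout log2 signal of 8.961 and a highest wild-type signal of 8.963. Both probes had the same sign in every pair, with the smaller value in pair 1 and pair 2 and the larger in pairs 4 and 5. The submitters' rule takes a transcript over 1.6-fold in 1 direction in at least 2 pairs with no pair against it. By that rule, on the brightest probe of each gene, Fasn was the only member called, 1 of 9. The share of all genes was 0.761% on the higher side and 0.714% on the lower side. The other Fasn probe was not called, as it passed 1.6-fold only in pair 5 (1.61-fold, against 1.48-fold in pair 4). The brighter probe met the threshold in pairs 4 and 5 only, so Fasn was not called when either of these pairs was left out. Without pair 4 the rule called Me1 in its place, and without pair 5 none of the members. In the authors' deposited table Fasn stands among 328 increased transcripts, with ratios from 1.01 to 2.31 and an average ratio of 1.63. The other 8 members are in neither the increased nor the decreased one of the authors' deposited tables.

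**Figure D2:**
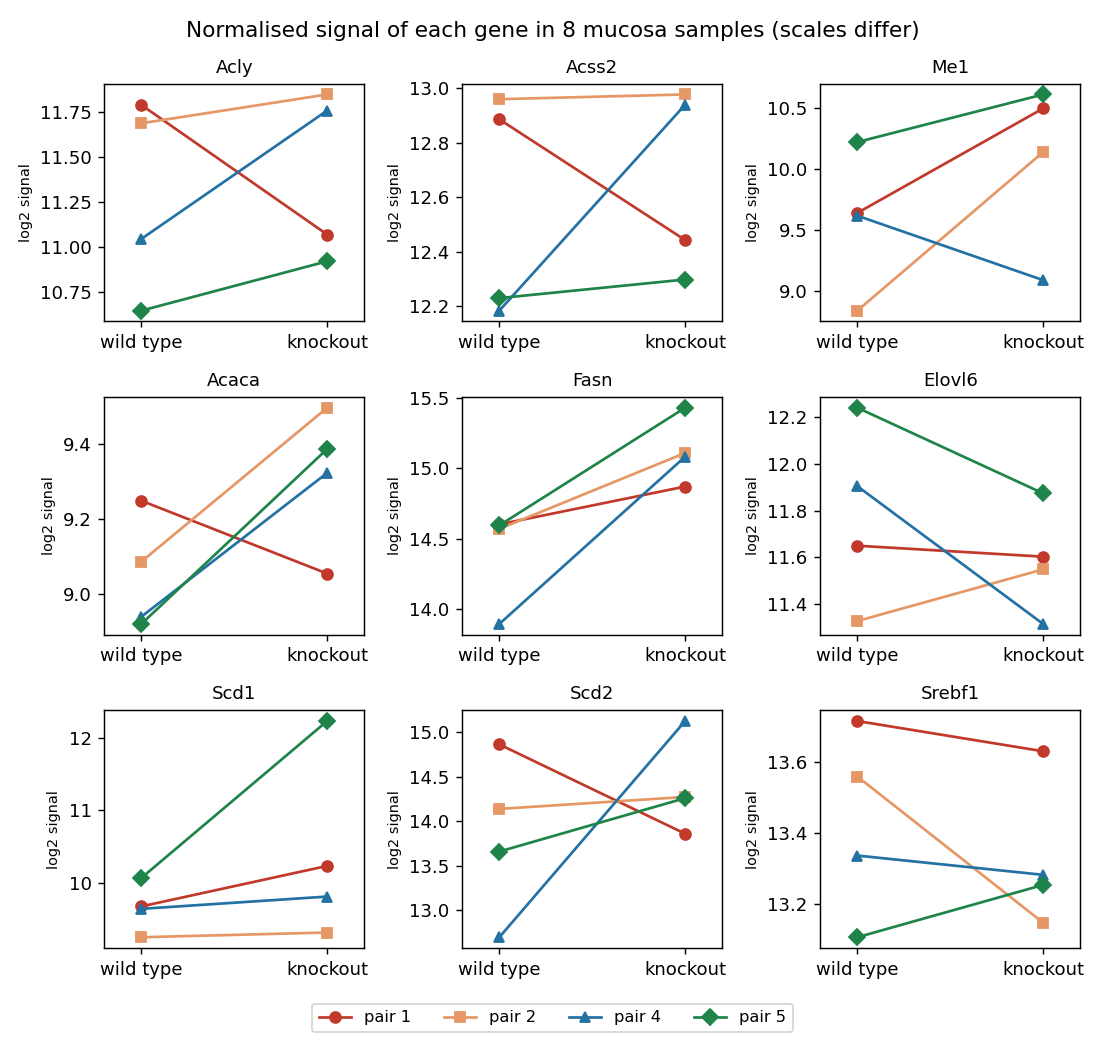
Normalised log2 signal (vertical axis, a separate scale in each panel) of each gene's brightest probe in the wild-type and knockout sample of each pair, joined by a line. For Fasn the 4 knockout samples (14.87 to 15.43) lie above the 4 wild-type samples (13.89 to 14.60), while the groups overlap for the other 8 genes.

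The enzyme before Fasn in the pathway is Acaca, the cytosolic acetyl-CoA carboxylase and the committed step. Its brightest probe (NM_133360) gave knockout log2 signals of 9.05, 9.50, 9.32 and 9.39 and wild-type signals of 9.25, 9.09, 8.94 and 8.92. The pair 1 knockout sample lay within the wild-type range, and the other 3 knockout samples lay above it. The log2 ratio was -0.19, 0.41, 0.38 and 0.47, a mean of 0.27 ± 0.309 (SD, n = 4 pairs), with a limma adjusted p of 0.656. Leaving out pair 1 gave 0.42 ± 0.0424 (SD, n = 3 pairs). The other 3 Acaca probes were much dimmer, with log2 signals of 6.41 to 6.96, where ratios are compressed. Their mean log2 ratios were -0.01, -0.08 and 0.13 over the 4 pairs and 0.0037, -0.06 and 0.15 without pair 1. The last of them was positive in all 4 pairs, at 0.07, 0.33, 0.10 and 0.03, and was above background in only 2 of 4 wild-type samples. It was the exception among the 14 member probes, of which 13 were well above background in all 8 samples and 0 were saturated.

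Acly and Acss2 supply acetyl-CoA, and their ratios ran in parallel over the pairs. Acly (NM_134037) gave knockout log2 signals of 11.07, 11.85, 11.76 and 10.92 and wild-type signals of 11.79, 11.69, 11.04 and 10.64. Its log2 ratio was -0.72, 0.16, 0.72 and 0.28, so pairs 1 and 4 were of nearly equal size and opposite sign. The mean was 0.11 ± 0.602 (SD, n = 4 pairs; limma adjusted p = 0.917), 0.38 ± 0.293 without pair 1, and just below 0 (-0.0016) with median centring in place of loess. Acss2 (NM_019811) gave knockout log2 signals of 12.44, 12.98, 12.94 and 12.30 and wild-type signals of 12.89, 12.96, 12.18 and 12.23. The ratio of its brighter probe was -0.44, 0.02, 0.76 and 0.07, a mean of 0.10 ± 0.495 (SD, n = 4 pairs; limma adjusted p = 0.909), 0.28 ± 0.413 without pair 1 and -0.03 with median centring. The other Acss2 probe spread more widely, with -0.91, -0.29, 0.99 and 0.48, a mean of 0.07 (0.39 without pair 1), and differed in sign from the first in pair 2. For both genes the knockout and wild-type ranges overlapped almost entirely.

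Me1, the cytosolic malic enzyme that yields NADPH, had its own order of pairs. The knockout log2 signals (NM_008615) were 10.49, 10.14, 9.09 and 10.61 and the wild-type signals 9.64, 8.84, 9.62 and 10.22. The log2 ratio was highest in pair 2 and below 0 in pair 4: 0.85, 1.30, -0.53 and 0.39. With median centring pair 1 was -0.08 and pair 4 was 0.10. The mean was 0.50 ± 0.781 (SD, n = 4 pairs; limma adjusted p = 0.621), 0.39 ± 0.912 without pair 1 and 0.85 ± 0.454 without pair 4. Me1 was the member over 1.6-fold higher in pair 1 (1 of 9, against 8.58% of all genes) and in pair 2 (1 of 9, against 4.38%).

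Elovl6, the elongase of long saturated chains, was the enzyme whose knockout signal tended to lie lower. Its knockout log2 signals (NM_130450) were 11.60, 11.55, 11.32 and 11.87, against 11.65, 11.33, 11.90 and 12.24 in wild type. The log2 ratio was -0.05, 0.22, -0.59 and -0.37, a mean of -0.20 ± 0.355 (SD, n = 4 pairs; limma adjusted p = 0.660) and of -0.24 ± 0.418 without pair 1. Pair 4, which had the largest positive Fasn, Scd2, Acly and Acss2 ratios, had the lowest Elovl6 ratio, although with median centring the Elovl6 ratio of pair 4 was 0.14. The groups overlapped.

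Scd1 and Scd2, 2 stearoyl-CoA desaturases of the same family, each rested on 1 pair, and not on the same one. Scd1 (NM_009127) gave a log2 signal of 10.23, 9.32, 9.81 and 12.23 in the knockout samples and 9.68, 9.25, 9.64 and 10.07 in the wild-type samples. The pair 5 samples were the highest of the knockout and of the wild-type group. Its pairs had log2 ratios of 0.56, 0.07, 0.17 and 2.16, and the last is a 4.47-fold difference. The mean was 0.74 ± 0.971 (SD, n = 4 pairs; limma adjusted p = 0.653), 0.80 ± 1.18 without pair 1 and 0.26 ± 0.260 without pair 5. With median centring the Scd1 ratio was -0.37 in pair 1 and -0.06 in pair 2.

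Scd2 (NM_009128) gave knockout log2 signals of 13.86, 14.27, 15.13 and 14.26 and wild-type signals of 14.86, 14.14, 12.69 and 13.66. Pair 4 held both the highest and the lowest of the 8 samples. Pairs 1, 2, 4 and 5 had log2 ratios of -1.0, 0.13, 2.43 and 0.60, so that the knockout signal was 5.40-fold higher in pair 4 and 2.01-fold lower in pair 1. The mean was 0.54 ± 1.43 (SD, n = 4 pairs; limma adjusted p = 0.745), 1.06 ± 1.21 without pair 1 and -0.09 ± 0.826 without pair 4. With median centring the pair 2 ratio was -0.16. In pair 4, 4 of 9 members were over 1.6-fold higher (Fasn, Scd2, Acly and Acss2), against 6.55% of all genes. In pair 5 these were 2 of 9 (Fasn and Scd1), against 3.11%. In pair 1, 2 of 9 were over 1.6-fold lower (Scd2 and Acly), against 7.35%.

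Srebf1, the regulator, differed little between genotypes on the loess values. Its knockout log2 signals (NM_011480) were 13.63, 13.15, 13.28 and 13.25 and its wild-type signals 13.72, 13.56, 13.34 and 13.10. The log2 ratio was -0.09, -0.41, -0.05 and 0.15, a mean of -0.10 ± 0.232 (SD, n = 4 pairs; limma adjusted p = 0.835), and -0.11 ± 0.284 without pair 1. The 95% confidence interval in limma ran from -0.40 to 0.19. Without loess the pairs spread more widely, and the pair 4 value turned positive. With median centring the ratios were -1.12, -0.68, 0.66 and 0.17 (mean -0.24). With Agilent's processed signals they were -0.41, -0.41, 0.21 and 0.29 (mean -0.08). The array reads the transcript of Srebf1 and not the cleavage that releases its protein.

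Markers of other cell types moved with some of these values. Adipoq, the adipocyte hormone adiponectin, had log2 signals of 6.54 (not well above background), 6.72, 8.48 and 11.30 in the knockout samples and 6.99, 6.76, 7.08 and 8.47 in the wild-type samples. The pair 5 samples were the highest of each group, as they were for Scd1. Adipoq was picked from its list after its values were seen, and not all adipocyte markers ran alike. Cidec had log2 ratios of -0.25, 0.83, -0.97 and 0.54 in pairs 1, 2, 4 and 5, and Lipe had 0.37, -0.16, -0.25 and -0.07. Over the 11 of 12 adipocyte markers measured, the mean log2 signal ran from 8.31 to 11.17 in knockout and from 8.36 to 9.46 in wild-type samples, and 9 of the 11 were well above background in all 8 samples. The median log2 ratio of this list was -0.14, -0.04, 0.68 and 1.97 in pairs 1, 2, 4 and 5. Scd1, which is abundant in fat, thus had its largest ratio in the pair with the largest adipocyte marker ratio, but in pair 1 its ratio was 0.56 while the marker median was below 0. The brighter Fasn probe had ratios of 0.27, 0.54, 1.19 and 0.84 in pairs 1, 2, 4 and 5. The other Fasn probe had 0.30, 0.35, 0.56 and 0.69 in the same pairs. The part of fat tissue in the Scd1 and Fasn results was not tested.

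By brightest probe, 4 of 9 members (Scd2, Acly, Acss2 and Acaca) had the sign of the posterior homeobox gene Hoxd13 in each pair. These signs, negative in pair 1 and positive in the other pairs, were held by 16.2% of all genes. The other Acss2 probe differed in pair 2, and none of the other Acaca probes had this pattern. With median centring the pair 2 ratios of Scd2, Acly and Acss2 were -0.16, -0.032 and -0.23, while that of Hoxd13 was 0.29. Hoxd13 had log2 signals of 6.71 (not well above background), 10.65, 11.81 and 9.56 in the knockout samples and 11.47, 10.22, 9.66 and 8.98 in the wild-type samples. Its log2 ratio was -4.76, 0.43, 2.15 and 0.58, against -1.0, 0.13, 2.43 and 0.60 for Scd2. The mean log2 signal of the 8 posterior Hox genes was 7.88 to 9.97 in knockout and 8.68 to 9.89 in wild-type samples, and 5 of the 8 were well above background in all samples. Hoxd13 was picked from these 8 genes after its values were seen, and not all of them ran alike: Hoxb13 stood at -3.03, -0.47, 1.14 and -1.04, and Hoxd12 at -0.39, -0.06, -0.00 and 0.04. Whether the position of the scraped mucosa along the colon has a part in these ratios was not tested.

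**Figure D3:**
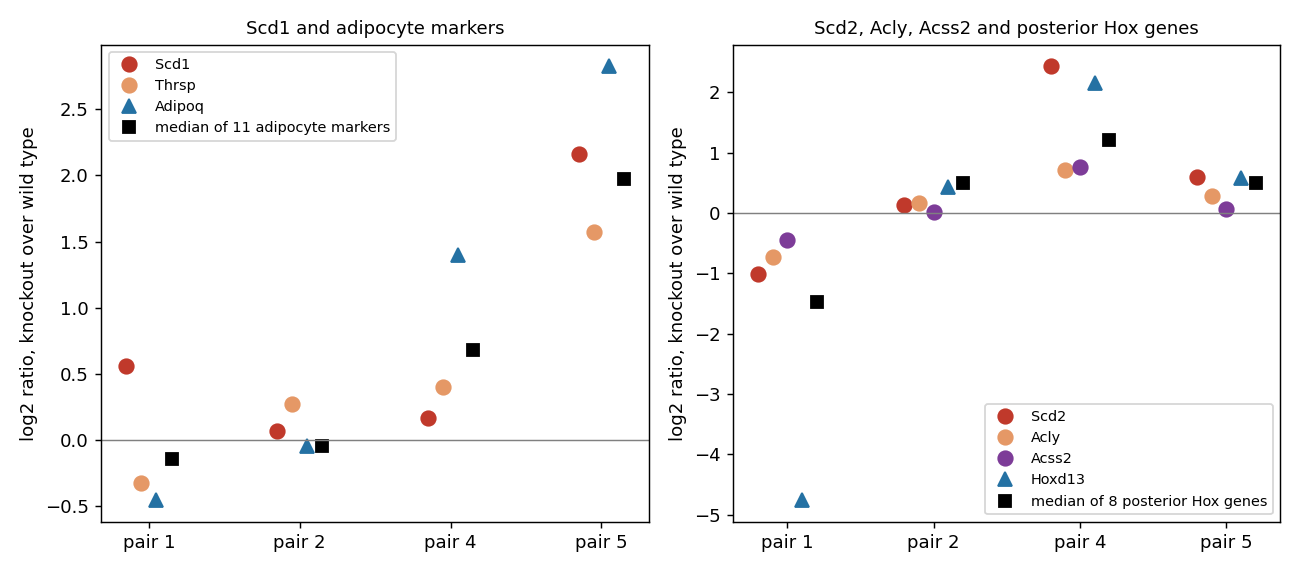
Log2 ratio of knockout over wild type (vertical axis) in each of the 4 pairs (horizontal axis) for members beside markers of fat and of position. On the left Scd1 and the median of the adipocyte markers have their highest values in pair 5 (2.16 and 1.97), although single markers differ. On the right Scd2, Acly and Acss2 are below 0 in pair 1 and highest in pair 4, like Hoxd13 and the median of 8 posterior Hox genes.

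The remaining marker lists gave these median log2 ratios in pairs 1, 2, 4 and 5. Smooth muscle markers stood at -1.03, -0.12, -0.39 and 0.32, and fibroblast and matrix markers at 0.63, -0.69, -0.75 and 0.08. Of the goblet cell markers 5 of 7, and of the absorptive colonocyte markers 7 of 10, were saturated on at least 1 array, so no change of these cells is read from their medians (1.41, 0.29, -0.73 and -0.61 for goblet cells, 0.19, 0.47, 0.07 and -0.30 for colonocytes). Leukocyte markers stood at 0.10, -0.39, -0.06 and -0.09. Crypt stem and proliferating cell markers (0.16, -0.08, 0.01 and 0.04) and squamous epithelium and sebaceous gland markers (-0.18, -0.11, -0.01 and -0.01) stayed nearer to 0. The part of these cell types in the members' values was not tested.

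The other enzymes of fatty acid synthesis, elongation and desaturation did not share the members' positive average. Of 23 such enzymes listed, 19 were measured. None passed limma, 5 had a positive and 14 a negative mean log2 ratio, and 5 of the 19 were negative in all 4 pairs (Elovl7, Hacd1, Hsd17b12, Mcat and Oxsm), against 8.41% of all genes. The median of their means was -0.13 and stayed below 0 in the other signal settings, although the pairs did not all keep their sign. Hsd17b12, the ketoreductase of very-long-chain elongation, had a log2 ratio of -0.57, -0.34, -0.58 and -0.59, a mean of -0.52 ± 0.122 (SD, n = 4 pairs; limma adjusted p = 0.594) and of -0.50 without pair 1. Elovl7, an elongase, had -0.64, -0.40, -0.29 and -0.51, a mean of -0.46 ± 0.151 (SD, n = 4 pairs; limma adjusted p = 0.594) and of -0.40 without pair 1. Both were uniform over the pairs, although with median centring their pair 4 ratios turned positive, to 0.14 and 0.43.

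All 15 listed genes that supply citrate, acetyl-CoA or NADPH were measured. The means were positive for 8 and negative for 7, with a median of 0.03, which turned to -0.15 with median centring and to -0.07 with Agilent's processed signals. The submitters' rule called 1 higher and 1 lower, and limma 0. Me3, the mitochondrial malic enzyme, was the higher one, with log2 ratios of 0.68, 0.76, 0.24 and 0.38 and a mean of 0.51 ± 0.245 (SD, n = 4 pairs; limma adjusted p = 0.594), or 0.46 without pair 1. Mdh1, the cytosolic malate dehydrogenase, was the lower one, with -0.93, -0.70, -0.11 and -0.06 and a mean of -0.45 ± 0.434 (SD, n = 4 pairs; limma adjusted p = 0.594), or -0.29 without pair 1. The pair 4 ratio of Mdh1 was 0.56 with median centring, and with Agilent's processed signals it was 0.20 in pair 4 and 0.25 in pair 5.

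Of 20 regulators of lipogenesis around SREBP, ChREBP and LXR, all measured, 12 had a positive and 8 a negative mean, with a median of 0.08 (-0.03 with median centring) and 0 called by limma or by the submitters' rule. Insig1, a sterol-sensing retention protein and itself a target of SREBP, had log2 ratios of -0.90, 0.91, 0.66 and 0.71 and a mean of 0.35 ± 0.836 (SD, n = 4 pairs), or 0.76 ± 0.135 without pair 1. Thrsp, a lipogenic protein abundant in fat, had -0.32, 0.28, 0.40 and 1.57 and a mean of 0.48 ± 0.793 (SD, n = 4 pairs), or 0.75 without pair 1. Its highest ratio was in pair 5, like that of Scd1 and the adipocyte marker median. Of 18 genes of fatty acid activation and glycerolipid assembly, all measured, 10 had a positive and 8 a negative mean, with a median of 0.03 (-0.10 with median centring), and 0 were called by limma or by the submitters' rule. Mogat2, an acyltransferase of fat absorption, had -0.20, 0.09, -0.91 and -1.33 and a mean of -0.59 ± 0.651 (SD, n = 4 pairs), or -0.71 without pair 1. Acsl4, which activates long polyunsaturated fatty acids, had -0.40, 0.72, 1.25 and 0.72 and a mean of 0.57 ± 0.695 (SD, n = 4 pairs), or 0.90 ± 0.306 without pair 1.

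The way the signal was prepared moved the members most in pairs 1 and 4. Without loess, with normexp and median centring, the median log2 ratio of all tested genes was -0.64, -0.12, 0.38 and 0.00 in pairs 1, 2, 4 and 5, and that of the 1472 brightest genes was -1.02, -0.32, 0.65 and -0.01. Fasn, Scd2 and Srebf1 are among these brightest genes. Fasn then had ratios of -0.76, 0.23, 1.87 and 0.84, each above the median of the brightest genes in its pair. Loess also removes shifts that go with brightness, so this comparison is not independent of the loess values. Scd2 had -2.04, -0.16, 3.13 and 0.61, and Srebf1 -1.12, -0.68, 0.66 and 0.17. Both lay below the median of the brightest genes in pair 1. With Agilent's processed signals, where all genes had medians of -0.24, -0.05, 0.17 and 0.14, Fasn had -0.08, 0.51, 1.32 and 0.86. The submitters' rule called 0 of the 9 members under both of these settings, since pair 1 then opposed the other pairs for Fasn.

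**Figure D4:**
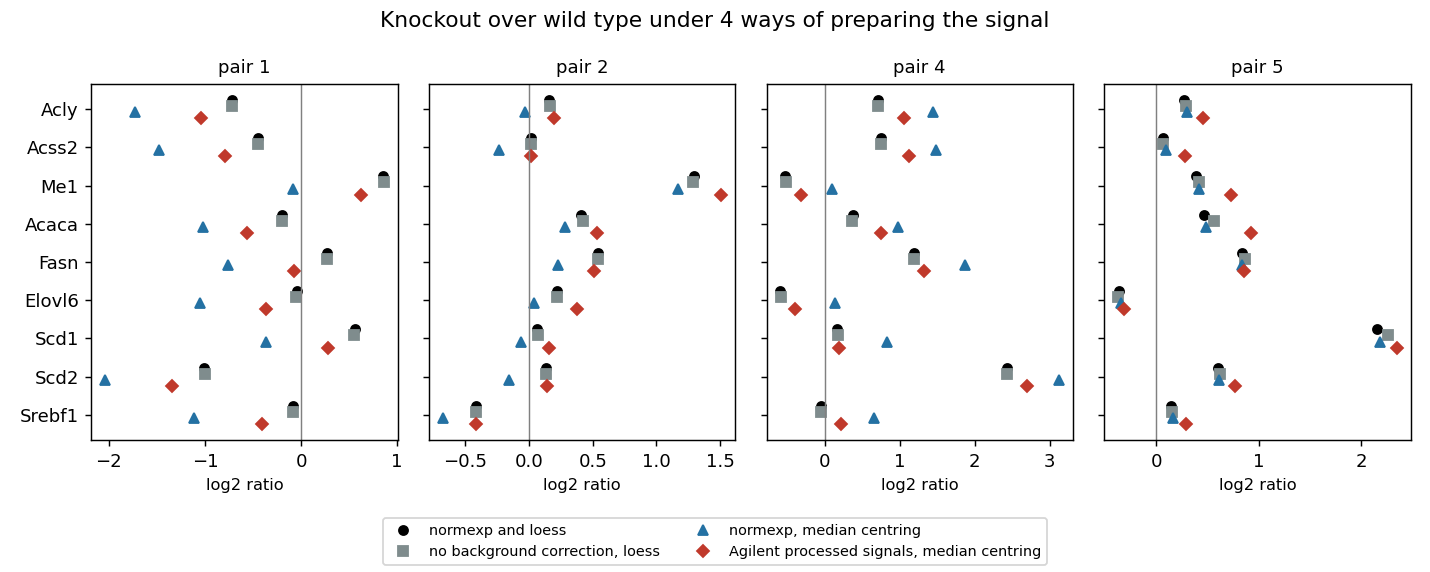
Log2 ratio of knockout over wild type (horizontal axis, a separate scale in each panel) of the 9 genes (vertical axis) in each pair, under 4 ways of preparing the signal. Both loess settings lie close together; median centring after normexp moves the genes down in pair 1 (Fasn from 0.27 to -0.76) and up in pair 4 (Fasn from 1.19 to 1.87).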

How the data were processed

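Each scanner file gives the intensity of every spot in both channels (median signal, local background, processed signal), written by Agilent Feature Extraction, whose version is 10.5.1.1 in the deposited headers and 8.5.1.1 in the submitters' processing notes. The deposited log10 ratios were only compared with the processed signals. The authors' tables of increased and decreased transcripts, also deposited, give 1 linear ratio for each array (knockout to wild type) without naming the samples or, in the sources used here, the normalisation.

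Median signals were corrected with normexp (offset 50) and normalised by loess (limma 3.58.1, R 4.3.3). Controls got weight 0 there, outlier spots were dropped, saturated ones kept and spots of 1 probe averaged. Symbols came through RefSeq accessions (GRCm38.p6) for 25114 of 41174 probes, 17 of these only through the authors' deposited tables, and 16060 had none. A probe was kept if 1 genotype's channel was well above background on 2 or more arrays, and the brightest stood for its gene, its level being the loess and Aquantile log2 signal. Genes were fitted with lmFit and eBayes, with a sign for orientation and a dye intercept, and Benjamini-Hochberg adjustment over 14712 genes at 0.05. The fit was tested on simulated data.

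Each array is a pair by construction. No label says outright that each sample code is a separate animal, so p-values reach no further than these samples. With the dye intercept, limma's p-values and intervals rest on the spread between pairs of the same dye orientation, moderated over genes. Depth does not apply to arrays, and their number limits the precision. All members were named with all probes; of each related list, genes past the submitters' rule or else those with the largest absolute mean ratio were named; marker lists are given as medians. Members and lists were chosen with earlier results of these data known. The 2 methylation arrays were not used, as no annotation of their build was at hand.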

Additional observations from a re-analysis of the deposited data

Results flagged for a closer look

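Of 45 groups of 4 values checked (ratios and levels, probe by probe), 2 had 1 sample far from the other 3 by Dixon's criterion, and chance gives about 1 in 20. The wild-type log2 signal of the brighter Fasn probe was 13.89 in pair 4, against 14.57 to 14.60 in the other 3 wild-type samples. The log2 ratio of the brightest Acaca probe was -0.19 in pair 1, against 0.38 to 0.47 in the other pairs.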

How the results depend on the processing

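Over 13 alternatives, no member passed limma at an adjusted p of 0.05. The adjusted p of Fasn ran from 0.116 to 1.00, and its fitted log2 ratio from 0.54 to 0.80. Fitted values with a pair left out keep the dye term, so they differ from the plain means given above. Of 257 recomputed values, 228 were classed as unchanged. For fitted ratios this meant the same direction and call, for counts a similar size and for medians a small shift. The members' median in pair 2 was so classed although it went from 0.16 to -0.03 with median centring. Acly reversed with median centring (-0.0016), and its fitted values without 1 pair ran from -0.11 to 0.33. Acss2 reversed with median centring (-0.034), and ran from -0.072 to 0.27 without 1 pair. The median of the members' means was 0.27 in the main setting. It ran from -0.064 (without pair 4) to 0.39 (without pair 1) with 1 pair left out. With processed signals it was 0.41, with median centring 0.18 and with the mean of all probes of a gene 0.11. The members' median in pair 4 was 0.17 with the mean of all probes, against 0.38 by brightest probe. In pair 1 the members' median was -1.05 with median centring. By the submitters' rule, 0 members were called with processed signals or median centring, and 0 to 1 without 1 pair (Fasn without pair 1 or 2, Me1 without pair 4, none without pair 5). That rule called 292 higher and 269 lower genes with processed signals, 45 and 293 with median centring, and 93 to 388 and 84 to 495 without 1 pair, both highest without pair 1. limma called 1 higher gene with no dye term and 1 with separate channels. It called lower 1 gene without background correction, 4 with processed signals, 1 with median centring, 2 with no dye term, 1 with the filter on both channels and 2 with separate channels. Tlr2 passed with processed signals (-6.43), median centring (-4.93), no dye term (-4.86) and, dropping the pairing as a replicate block, separate channels (-4.86, limma adjusted p = 0.00270). The pairing is built into the arrays, and that fit called no member. The causes of these changes were not tested. The number of arrays limits the precision. The alternatives were planned, except the count of members positive in pairs 2, 4 and 5 and the list medians without pair 1, chosen after seeing the data.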

Other observations

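Aacs, the cytosolic enzyme that makes acetoacetyl-CoA for sterol and fatty acid synthesis, was picked after its values were seen. Its log2 ratio was 0.00, 0.66, 0.99 and 0.59 in pairs 1, 2, 4 and 5, a mean of 0.56 ± 0.409 (SD, n = 4 pairs; limma adjusted p = 0.594) and of 0.74 without pair 1. The wild-type samples gave log2 signals of 13.73, 13.29, 12.75 and 13.04 and the knockout samples 13.74, 13.95, 13.74 and 13.62. The groups overlapped through pair 1.

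The genes outside the list whose ratios lay nearest to the members' median ratios over the 4 pairs were Cdc5l, Dnajc21, Eif6, Xrcc4 and Fam168b, at root mean square distances of 0.0320, 0.0442, 0.0451, 0.0505 and 0.0516 on the log2 scale. Cdc5l, the nearest, had log2 ratios of -0.13, 0.14, 0.39 and 0.35, beside -0.09, 0.16, 0.38 and 0.39 for the members' medians. With 4 values a gene, near profiles are frequent among 14712 genes.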
